A study of Mus musculus with 6 samples.

Results

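Mitochondrial ribosomal protein genes were followed through the differentiation of C2C12 cells, an established mouse myoblast line that fuses into multinucleated myotubes when serum is lowered. They were the rows of the count table with a symbol of the form Mrpl or Mrps, a number and at most 1 letter, which gave 78 of 27179 genes. Of these, 51 encode proteins of the large subunit and 26 proteins of the small subunit, with Mrps30 and Mrps18a counted in the large subunit where the proteins lie. The remaining gene, Mrps36, is now known to encode a subunit of the oxoglutarate dehydrogenase complex. One group held 3 libraries of myoblasts kept below confluence in high glucose medium with 10% fetal bovine serum. The other held 3 libraries of myotubes, which had spent 3 days at 100% confluence before 5 days of differentiation in high glucose medium with 2% horse serum and a supplement of insulin, transferrin, selenium and ethanolamine. Both media contained 4 mM glutamine, and the labels name no genetic change in either group. Serum, supplement, density and differentiation cannot be told apart in this design. The labels describe harvests in triplicate without naming separate cultures, so p-values reflect no more than the spread among these libraries, which may be technical.

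Mitochondrial ribosomes (mitoribosomes) translate the few messages of the mitochondrial genome, all of which encode subunits of the respiratory chain and ATP synthase. Their RNA is transcribed from mitochondrial DNA, while every one of their proteins is encoded in the nucleus, made in the cytosol and imported. Some of these proteins descend from the bacterial ribosome, and others are found only in mitochondria. Differentiating muscle cells are known for building up their mitochondria.

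Library totals were 7370169 to 8339589 counts in myotubes and 10076945 to 11723881 in myoblasts. All 8 myotube markers, from Myog to Acta1, were higher in myotubes, with summed levels of 286 to 306 CPM (counts scaled to the library total, with TMM factors) in myoblasts and 13500 to 14600 in myotubes. All 5 proliferation markers were lower, from 1530 to 1540 CPM in myoblasts to 101 to 111 in myotubes. Of 5 markers of myoblasts or unfused reserve cells, 4 were lower, and all 5 summed to 543 to 578 CPM in myoblasts and still 144 to 157 in myotubes. Markers of adipocytes, osteoblasts and endothelial cells failed the filter on low counts, and summed to at most 0.884 CPM in any library. The macrophage markers summed to 1.43 to 2.65 CPM over all libraries, with Adgre1 at 0. In bulk libraries such as these, fewer cells of a type and less RNA per cell cannot be told apart.

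Most mitoribosomal protein genes changed little in size, and more rose than fell. Of the 77 that passed the filter on low counts, 41 rose, 14 fell and 22 did not pass the test (edgeR's quasi-likelihood test, Benjamini-Hochberg adjusted p below 0.05). The risers were 53.2% of the tested members, beside 40.2% of all 12800 genes tested that were called higher in myotubes. The fallers were 18.2% of them, beside 39.2% of all genes tested that were called lower. Scaled by library totals alone, which moves the median log2 change of all genes by −0.15, 32 members were called higher and 22 lower, beside 33.4% and 46.4% of all genes. The median log2 change (myotubes over myoblasts) of tested members was 0.23, with quartiles of −0.07 and 0.46, where all genes tested had a median of 0.02 and quartiles of −0.54 and 0.60. By library totals these medians were 0.09 and −0.13. Log2 changes within 0.5 of 0 were found for 60 of the 77 members, or 77.9%, and for 45.8% of all genes tested.

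Against a 1.5-fold threshold, 8 members were called higher and 1 lower, while 20.9% of all genes tested passed this test upward and 18.4% downward. The 8 were Mrps10, Mrpl32, Mrps23, Mrpl53, Mrps14, Mrpl33, Mrpl41 and Mrpl30, and the 1 was Mrps6. By library totals Mrps10, Mrpl32, Mrps23 and Mrpl53 were called higher beyond 1.5-fold, 4 members beside 17.5% of all genes, and Mrps6 lower. Beyond 1.2-fold, 29 members were higher and 5 lower, beside 31.5% and 30.6% of all genes tested. Beyond 2-fold, by edgeR's glmTreat, 0 were higher (also 0 at an unadjusted p below 0.05) and Mrps6 was lower, beside 12.4% and 9.2%. The lowest myotube library lay above the highest myoblast library for 41 members, and 40.6% of all genes tested had groups apart in this way. The opposite order held for 15 members and for 39.9% of all genes tested. Mrpl36 failed the filter, with 4, 2 and 1 counts in myoblasts and 6, 3 and 3 in myotubes, and no change is given for it.

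**Figure D1:**
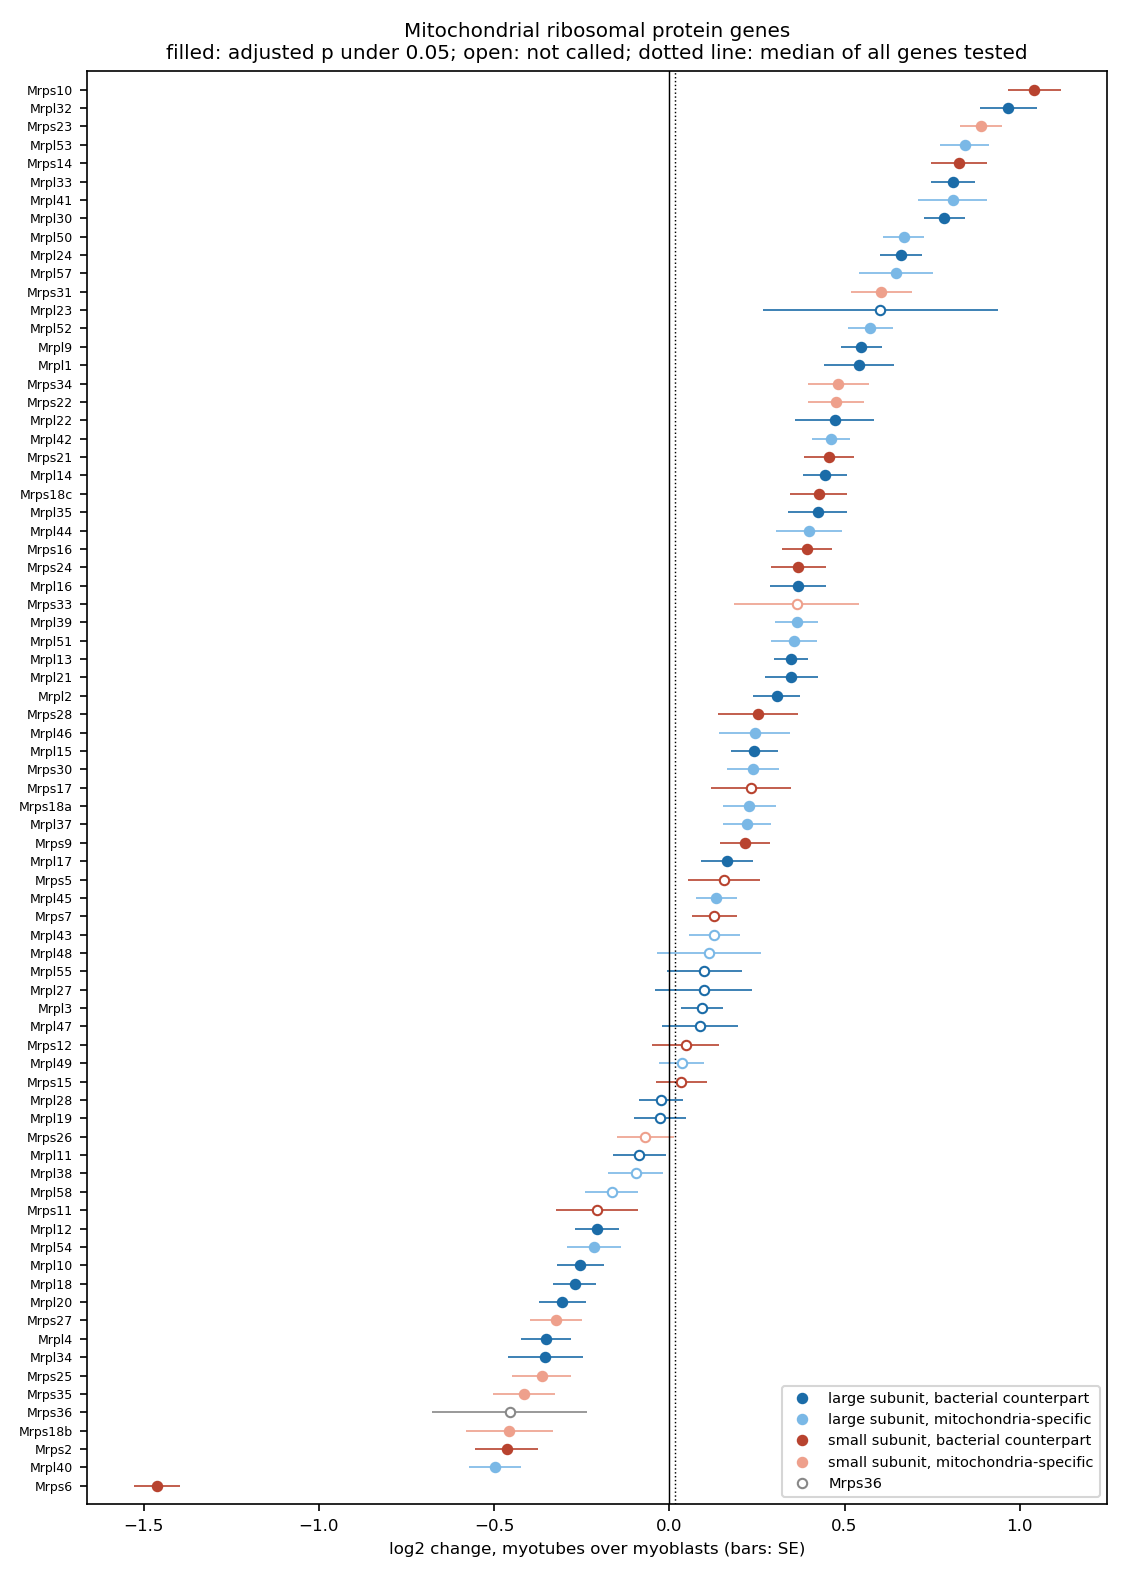
Log2 change of each of the 77 tested mitoribosomal protein genes, myotubes over myoblasts (x axis), with its standard error as a bar, 1 gene per line (y axis), coloured by subunit and by whether the protein has a bacterial counterpart. Mrps18a and Mrps18b are coloured as found only in mitochondria. Filled points passed an adjusted p of 0.05, the dotted line marks the median of all genes tested at 0.02, and Mrps6 at −1.46 stands apart from the other members, which lie between −0.50 and 1.04.

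The summed level of the 78 genes was 2719, 2645 and 2687 CPM in the myoblast libraries and 3123, 3099 and 3149 CPM in the myotube libraries. The sum was higher in every myotube library, by 1.16-fold between the group means. Summed per kilobase of the principal transcript, the large subunit genes went from 1577 ± 26.5 to 1939 ± 21.7 CPM per kb (SD, n = 3), 1.23-fold. The small subunit genes went from 586.1 ± 5.26 to 659.7 ± 6.69 CPM per kb, 1.13-fold. The ratio of small to large subunit sums was 0.365, 0.375 and 0.375 in myoblasts and 0.341, 0.341 and 0.339 in myotubes, so the groups did not overlap. Mrps6 alone gave 82.5 ± 1.26 CPM per kb of the small subunit sum in myoblasts and 30.0 ± 1.16 in myotubes. Without Mrps6 the ratio of sums would not have fallen. The ratio of small to large subunit medians per kb, with Mrps6 included, went from 0.854 ± 0.0396 to 0.758 ± 0.0278.

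By the mean of both groups, the highest levels per transcript length belonged to the large subunit genes Mrpl33, Mrpl52, Mrpl42, Mrpl14 and Mrpl13. Mrpl33 went from 112 ± 7.34 to 196 ± 13.7 CPM per kb, Mrpl52 from 92.9 ± 0.995 to 138 ± 8.89 and Mrpl42 from 83.9 ± 1.25 to 115 ± 1.33. Mrpl14 went from 73.8 ± 2.99 to 101 ± 6.69 CPM per kb, and Mrpl13 from 70.5 ± 1.19 to 89.7 ± 1.94. In myoblasts alone, Mrps6 at 82.5 ± 1.26 CPM per kb stood above Mrpl14 and Mrpl13, and did not differ from Mrpl42 beyond their spread. Mrpl20, at 79.1 ± 3.70 CPM per kb in myoblasts, stood above Mrpl13 but did not differ from Mrpl14 beyond their spread. Mrpl14 and Mrpl13 did not differ beyond their spread in myoblasts, since mean ± SD of one reached that of the other. In myotubes they did not meet, and Mrpl14 was higher. The lowest tested members by the same mean were Mrpl48, Mrpl23, Mrps17, Mrps5 and Mrps25, at 1.44 to 4.97 CPM per kb in myoblasts and 1.68 to 4.47 in myotubes. In myoblasts Mrps33, at 3.91 ± 0.157 CPM per kb, was below Mrps25 and within the spread of Mrps5. These levels depend on the transcript chosen: per kilobase of all annotated exons, Mrpl33 stood at only 7.33 CPM per kb in myoblasts.

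Large subunit proteins with a bacterial counterpart included 15 risers and 6 fallers among 29 tested, with a median log2 change of 0.24. These were 51.7% and 20.7% of the class, beside 40.2% and 39.2% of all genes tested. Mrpl32, whose processing by an inner membrane protease is needed for ribosome assembly, had 19.9, 21.9 and 23.6 CPM in myoblasts and 44.8, 39.5 and 43.6 CPM in myotubes. All myotube libraries were well above all myoblast libraries, and the log2 change was 0.97 (SE 0.08, adjusted p = 5.38e-11). Mrpl33, a small protein of this class, had 53.6, 50.2 and 57.2 CPM in myoblasts and 96.2, 86.5 and 98.9 in myotubes. It rose by 0.81 on the log2 scale (SE 0.06, adjusted p = 7.99e-12), again without overlap. Mrpl30 rose from 48.3 ± 0.625 to 83.2 ± 5.19 CPM (log2 change 0.78, adjusted p = 5.53e-12). Mrpl24, of the exit tunnel rim, rose from 41.6 ± 0.874 to 65.8 ± 1.65 CPM, a log2 change of 0.66. Among the fallers, Mrpl4 had 38.5, 40.9 and 40.6 CPM in myoblasts and 30.7, 32.1 and 31.2 in myotubes, so its groups were apart by several CPM. Its log2 change was −0.35 (SE 0.07, adjusted p = 7.45e-05). Mrpl34 and Mrpl20 fell by 0.35 and 0.30 on the log2 scale.

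Large subunit proteins found only in mitochondria included 14 risers and 2 fallers among 21 tested, with a median of 0.24. These were 66.7% and 9.52% of the class, beside 40.2% and 39.2% of all genes tested. Mrps18a, although a paralogue of bacterial S18, was counted here among the risers. Mrpl41 had 18.1, 17.6 and 23.2 CPM in myoblasts and 34.5, 36.5 and 31.6 in myotubes. Its myoblast library 3 lay above the other two, still below every myotube library, and the log2 change was 0.81 (SE 0.10, adjusted p = 4.51e-08). Mrpl50 rose from 44.6 ± 0.328 to 70.8 ± 2.48 CPM (log2 change 0.67, adjusted p = 1.06e-10). Mrpl57 rose from 16.9 ± 1.85 to 26.4 ± 3.62 CPM (log2 change 0.65, adjusted p = 5.22e-06). Mrpl40, of the central protuberance at the top of the subunit, fell: it had 39.2, 40.3 and 37.5 CPM in myoblasts and 27.0, 27.5 and 28.4 in myotubes. These groups did not overlap, and the log2 change was −0.50 (SE 0.07, adjusted p = 1.11e-06). Mrpl54 was the other faller, at −0.21, and its adjusted p of 0.015 became 0.06 by the DESeq2 Wald test.

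Small subunit proteins with a bacterial counterpart included 8 risers and 2 fallers among 16 tested, with a median of 0.23. Mrps10, of the small subunit head, had 22.1, 22.8 and 24.8 CPM in myoblasts and 49.9, 45.8 and 47.6 in myotubes. This was the highest log2 change of any tested member, 1.04 (SE 0.07, adjusted p = 2.09e-12), with every myotube library above every myoblast library. Mrps14, also of the head, had 21.9, 23.7 and 22.1 CPM in myoblasts and 43.7, 38.7 and 38.3 in myotubes (log2 change 0.83, SE 0.08, adjusted p = 7.15e-10). Mrps2 had 46.1, 42.4 and 46.0 CPM in myoblasts and 25.6, 35.9 and 35.5 in myotubes. Its myotube library 1 was lower than the other two, but all 3 were below the myoblast libraries, with a log2 change of −0.46 (SE 0.09, adjusted p = 4.24e-05).

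Mrps6 fell most. This gene for a platform protein of the small subunit had 69.1, 69.3 and 71.0 CPM in myoblasts and 25.7, 26.1 and 24.2 in myotubes. The libraries of each group lay within 2 CPM of each other, and the myotube mean was 36.3% of the myoblast mean. The log2 change was −1.46 (SE 0.07, adjusted p = 1.76e-16). In the RefSeq table, Mrps6 starts 14 bases downstream of Slc5a3, a gene for a myo-inositol transporter, on the same strand of chromosome 16. Slc5a3, named for its position after its values were seen, fell from 142 ± 5.55 to 46.6 ± 0.829 CPM (log2 change −1.60, adjusted p = 3.79e-19). Exons of Slc5a3 and of a second transcript at the locus, Gm49711, cover 19.9% of the exon bases of Mrps6, and 32.2% of the 50-base windows of Mrps6 recur in another transcript. How reads of these shared exons were assigned is not stated, so the 2 changes are not independent measurements. The sequence just upstream of both starts, chr16:92058202-92058321 on the plus strand (RefSeq, GRCm38.p6), is shown because both genes start from it. Capitals mark the word GGGGCGGGG, which SP1 family factors are known to bind.
Mrps6 and Slc5a3: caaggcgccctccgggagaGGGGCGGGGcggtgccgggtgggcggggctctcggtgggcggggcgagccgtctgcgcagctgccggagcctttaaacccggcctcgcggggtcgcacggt

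Small subunit proteins found only in mitochondria included 4 risers and 4 fallers among 10 tested, with a median of 0.15. Mrps18b, although a paralogue of bacterial S18, was counted here among the fallers. Mrps23 had 49.3, 48.3 and 43.6 CPM in myoblasts and 88.3, 89.2 and 84.6 in myotubes. Its groups were far apart, with a log2 change of 0.89 (SE 0.06, adjusted p = 4.82e-13). Mrps31 rose from 19.0 ± 0.567 to 28.8 ± 1.80 CPM (log2 change 0.61, adjusted p = 7.46e-07). Mrps35 had 26.0, 26.2 and 26.5 CPM in myoblasts and 18.1, 19.9 and 20.8 in myotubes, a log2 change of −0.41 (adjusted p = 1.57e-04). Mrps27, a pentatricopeptide repeat protein, fell by 0.32. Mrps25 went from 30.2 ± 0.933 to 23.4 ± 1.74 CPM (log2 change −0.36), but 69.8% of its exon bases lie antisense to Nr2c2. That gene fell by 0.34 as well, and no source used here states whether counting used strand.

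**Figure D2:**
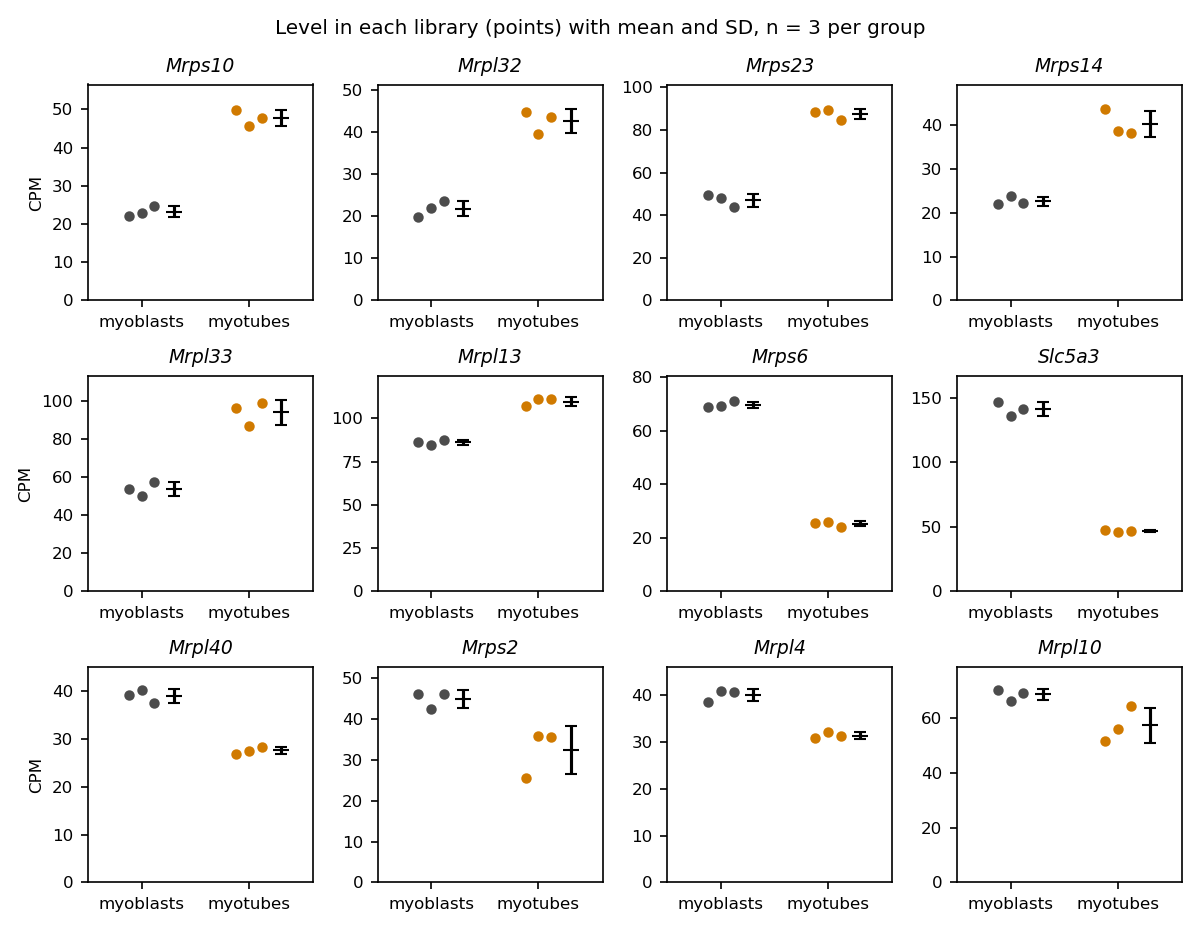
CPM (y axis, linear from 0) of 11 mitoribosomal protein genes and Slc5a3 in each myoblast and myotube library, with the mean and SD of 3 libraries. The groups are separate in every panel, upward in the first 6 genes and downward from Mrps6 on, and Mrps6 and Slc5a3 show the steepest falls of the set.

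Members were also read by the place of the protein in the ribosome. Beside the counts that follow, 40.2% of all genes tested were called higher and 39.2% lower. With so few genes per place, the counts set no place apart. In the stalk and its base, which receive the translation factors, 1 of 5 genes rose, 3 fell and the median was −0.21. Mrpl12, the counterpart of bacterial L7/L12, had 60.9, 68.1 and 68.8 CPM in myoblasts and 55.1, 60.8 and 55.6 in myotubes. The groups nearly met, at 60.9 and 60.8 CPM, and the log2 change was −0.21 (SE 0.06, adjusted p = 0.00464). Mrpl10, which holds Mrpl12 on the ribosome, had 70.4, 66.3 and 69.2 CPM in myoblasts and 51.8, 55.9 and 64.3 in myotubes (log2 change −0.25, adjusted p = 0.00120). The third faller was Mrpl54, and Mrpl11 had a log2 change of −0.09 that did not pass the test (adjusted p = 0.30). The riser was Mrpl53, from 31.7 ± 2.24 to 56.8 ± 2.95 CPM (log2 change 0.84, adjusted p = 3.89e-11). Every 50-base window of Mrpl53 also occurs in Gm42688, an overlapping transcript on the same strand, so its counts cannot be told apart from those of that transcript.

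Around the exit of the peptide tunnel, 4 of 6 genes rose, 0 fell and the median was 0.32. All genes tested were called higher in 40.2% and lower in 39.2%. Besides Mrpl24, Mrpl22 rose by 0.47 on the log2 scale, Mrpl17 by 0.16 and Mrpl45, which tethers the ribosome to the inner membrane, by 0.13. The last 2 calls were weak: Mrpl17 lost its call in 7 of 15 other settings and Mrpl45 in 9, with a log2 change of −0.01 by library totals. Mrpl47 and Mrpl23 did not pass the test, with log2 changes of 0.09 and 0.60. Mrpl23 was at about 1 CPM, and 76.4% of its windows recur elsewhere, chiefly in the pseudogene Mrpl23-ps1.

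In the central protuberance, 2 of 8 genes rose and 2 fell, with a median of 0.10. Mrpl52 rose by 0.57 on the log2 scale (SE 0.06, adjusted p = 1.23e-08), with means of 38.8 ± 0.416 and 57.7 ± 3.72 CPM. Mrpl46 rose by 0.24, a call lost in 7 of 15 other settings, while Mrpl40 and Mrpl18 fell by 0.50 and 0.27. The other members of this group, Mrpl38, Mrpl27, Mrpl55 and Mrpl48, had log2 changes of −0.10 to 0.11 that did not pass the test. Of 4 proteins along the path of the messenger RNA and the decoding site, Mrps24 rose by 0.37 and Mrps35 fell. Mrps12, the counterpart of the bacterial decoding protein S12, had a log2 change of 0.05 (adjusted p = 0.66), and Mrps5 one of 0.16 (adjusted p = 0.16).

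Of the tested members that did not pass, Mrpl58 came closest. This protein, a ribosome-bound peptidyl-tRNA hydrolase, had 38.2, 34.8 and 34.7 CPM in myoblasts and 33.7, 29.9 and 32.5 in myotubes. The groups did not overlap, and the log2 change was −0.16 (SE 0.08, adjusted p = 0.0507). Mrps36, the member that is no ribosomal subunit, had 4.13, 4.55 and 4.62 CPM in myoblasts and 4.42, 2.98 and 2.40 in myotubes, with overlap (log2 change −0.46, SE 0.22, adjusted p = 0.0625). Mrps33 and Mrps17 had log2 changes of 0.36 and 0.23, with adjusted p of 0.0652 and 0.0644. Mrps7, Mrpl43 and Mrpl3 had changes of 0.13, 0.13 and 0.09, and Mrps11 one of −0.21. Mrps15, Mrpl49, Mrpl28, Mrpl19 and Mrps26 lay between −0.07 and 0.04.

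Mrps18a, Mrps18b and Mrps18c are paralogues of bacterial S18. Mrps18b and Mrps18c sit at different places in the small subunit, and Mrps18a in the large one. Only Mrps18c was counted above with the proteins that have a bacterial counterpart. Mrps18c rose from 21.8 ± 0.322 to 29.2 ± 0.696 CPM, 0.43 on the log2 scale, and Mrps18a rose by 0.23. Mrps18b had 17.9, 20.5 and 19.8 CPM in myoblasts and 13.3, 11.2 and 17.7 in myotubes. Its myotube library 3 came close to the lowest myoblast library, and the log2 change was −0.46 (SE 0.12, adjusted p = 0.00178). The log2 ratio of Mrps18c to Mrps18b went from 0.17 ± 0.12 to 1.08 ± 0.32 (SD, n = 3 per group), a difference of 0.91. That of Mrps18a to Mrps18b went from 0.80 to 1.52, and that of Mrps18a to Mrps18c from 0.63 to 0.44. The groups did not overlap in any of the 3 ratios, and each exact two-sided permutation test gave p = 0.1 (0.1 after adjustment over the 3), the smallest that 3 libraries against 3 can give. Of the windows of Mrps18b, 63.7% recur elsewhere, chiefly in the antisense transcript Gm16279, so its level is uncertain. For Mrps18c, 23.2% of the exon bases overlap Gm43511 on the same strand and 22.4% of the windows recur elsewhere. The ratios share these limits.

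Shared or overlapping sequence touched 19 members by more than 20% of their exon bases or windows. Besides those already named, 63.4% of the exon bases of Mrps34 lie antisense to Mapk8ip3. Mrps34 rose by 0.48 and Mapk8ip3 by 0.91. Among the members with the highest changes, 30.3% of the windows of Mrpl33, 38.0% of those of Mrpl24 and 24.8% of those of Mrps10 recur in another transcript. Of the 58 tested members without such sequence, 33 rose and 10 fell, and their median was 0.23. That was 56.9% and 17.2%, beside 40.2% and 39.2% of all genes tested.

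Many of these genes share a start region with a neighbour. In the GENCODE annotation of GRCm38, 33 of 78 members (42.3%) had the start of another protein-coding gene within 1000 bases on the opposite strand, pointing away. The same was true of 16.5% of the 11895 protein-coding genes tested. The 2 starts lay 26 bases apart at the least and 128 at the median. In 29 pairs both genes were tested, and in 15 both were called. Of these 15, 5 rose together, 3 fell together, 6 had a rising member beside a falling partner and 1 the reverse. Among the 29 partners, 9 were called higher and 12 lower, beside 40.2% and 39.2% of all genes tested. Pairs of other genes were not counted in this way, so nothing particular to these pairs can be read from the counts.

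The pairs named here were chosen after their values were seen. Mrpl57 rose by 0.65 beside Ska3, a spindle and kinetochore protein, which fell from 38.1 ± 0.468 to 2.17 ± 0.765 CPM (log2 change −4.14, adjusted p = 6.14e-19). Mrpl51 rose by 0.36 beside the condensin subunit Ncapd2, which fell from 183 ± 4.96 to 21.2 ± 0.980 CPM (log2 change −3.12). Mrps18c rose by 0.43 beside the DNA helicase gene Helq, which fell by 1.32. Mrpl27, at 8.76 ± 0.671 and 9.41 ± 1.13 CPM, did not pass the test beside the nuclease subunit Eme1, which fell from 16.6 ± 0.107 to 0.629 ± 0.0861 CPM (log2 change −4.70). Mrpl40 fell beside the histone chaperone Hira (log2 change −0.93), and Mrps18b beside Ppp1r10 (log2 change −1.01). Pairs that rose together included Mrpl41 with Pnpla7 (log2 changes 0.81 and 0.95) and Mrpl50 with Zfp189 (0.67 and 0.59). Mrpl32 rose by 0.97 while the proteasome subunit Psma2 had a log2 change of 0.02 that did not pass. Mrpl46 and Mrps11 form a pair of members, at 0.24 and −0.21, of which the second did not pass. The untested Mrpl36 lies beside the complex I subunit Ndufs6, which rose by 0.63.

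**Figure D3:**
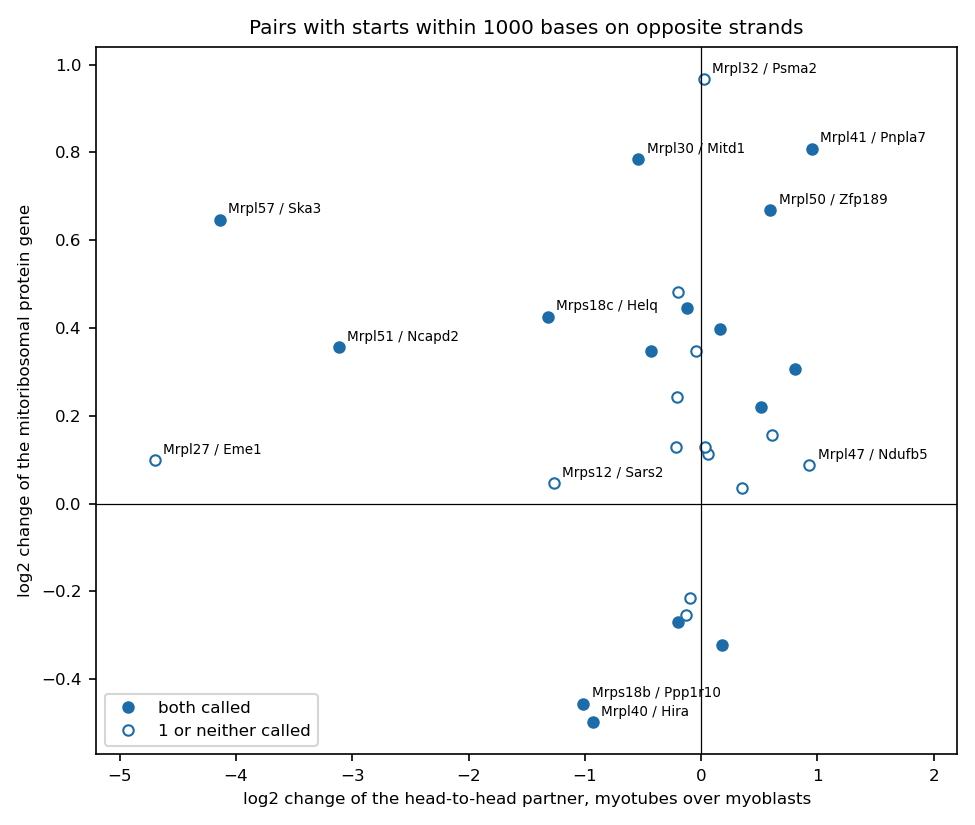
Log2 change of each mitoribosomal protein gene (y axis) against that of the neighbour on the opposite strand with a start within 1000 bases (x axis), myotubes over myoblasts, for the 29 pairs with both genes tested. Points at the far left pair a member with a cell division or DNA repair gene with log2 changes down to −4.70, while the member lay between 0.10 and 0.65.

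The stretches between the RefSeq starts of 3 of these pairs are shown to make plain how little sequence lies between genes with such different changes. Their extent depends on the annotation. The starts of Mrpl57 and Ska3 lie 76 bases apart in RefSeq and 49 in GENCODE. Those of Mrpl27 and Eme1 lie 48 and 197 bases apart, and those of Mrps18c and Helq 159 and 29. On the plus strand of GRCm38.p6 they are chr14:57826164-57826238 for Mrpl57 and Ska3, chr11:94653744-94653790 for Mrpl27 and Eme1, and chr5:100798601-100798758 for Mrps18c and Helq. Capitals mark the word CCGGAAG on either strand, which ETS family factors such as GABP (NRF2) are known to bind. The same word occurs just outside the printed stretch for Mrpl57, after its start, and for Mrpl27, farther upstream.
Mrpl57 and Ska3: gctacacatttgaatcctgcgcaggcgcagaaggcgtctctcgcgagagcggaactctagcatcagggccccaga
Mrpl27 and Eme1: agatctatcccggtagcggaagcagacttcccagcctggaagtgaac
Mrps18c and Helq: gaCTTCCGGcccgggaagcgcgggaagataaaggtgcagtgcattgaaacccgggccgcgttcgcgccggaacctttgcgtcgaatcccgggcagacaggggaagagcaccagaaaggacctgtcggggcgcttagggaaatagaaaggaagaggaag

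Start regions were also searched for words of 4 factors, in RefSeq windows from 250 bases before to 50 after each start, on both strands. Windows matched 69 members, with 75 windows in all. The word of ETS factors was found in 34.7% of the members' windows, beside 17.3% of the 12649 windows of genes tested and 8.86% of all windows in the table. The word AAGATGGC, known from YY1, was found in 16.0%, beside 4.38% and 2.75%. Either of GCGCATGCG and TGCGCATGC, 2 words that overlap in the palindrome bound by the respiratory gene activator NRF1, was found in 9.33%, beside 4.46% and 2.25%. The word GGGGCGGGG was found in 15 of the 75 windows (20%), beside 21.3% and 11.4%. A match describes the letters only, and says nothing of binding.

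Members with and without these words rose and fell. Of all genes tested, 40.2% were called higher and 39.2% lower. The 26 tested members with the ETS word included 14 risers and 4 fallers with a median log2 change of 0.29, and the 42 without it 23 risers and 7 fallers with a median of 0.24. The 7 with an NRF1 word were Mrpl10, Mrpl17, Mrpl22, Mrpl32, Mrpl39, Mrpl9 and Mrps18b. Of these, 5 rose, Mrpl10 and Mrps18b fell, and the median was 0.36. The 61 without an NRF1 word included 32 risers and 9 fallers, with a median of 0.23. Mrpl9 rose from 62.9 ± 3.39 to 92.0 ± 5.39 CPM and Mrpl39 from 47.8 ± 2.46 to 61.5 ± 1.04. Mrpl32, the second highest riser, carried the word at 3 places upstream of its start.

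The upstream stretches of these 7 genes are shown since they carry these words in genes that moved both ways, 5′ to 3′ on the strand of the gene (RefSeq, GRCm38.p6), with the NRF1 words in capitals. They are chr11:97041427-97041476 (plus) for Mrpl10, chr7:105811088-105811119 (minus) for Mrpl17, chr11:58171610-58171659 (plus) for Mrpl22 and chr13:14613038-14613145 (minus) for Mrpl32. The others are chr16:84735340-84735389 (minus) for Mrpl39, chr3:94443287-94443335 (plus) for Mrpl9 and chr17:35916635-35916684 (minus) for Mrps18b.
Mrpl10: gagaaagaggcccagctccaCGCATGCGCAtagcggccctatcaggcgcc
Mrpl17: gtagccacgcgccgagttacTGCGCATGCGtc
Mrpl22: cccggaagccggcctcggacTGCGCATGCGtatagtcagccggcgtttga
Mrpl32: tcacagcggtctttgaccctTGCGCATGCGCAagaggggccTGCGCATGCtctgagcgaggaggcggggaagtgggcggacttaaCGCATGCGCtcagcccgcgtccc
Mrpl39: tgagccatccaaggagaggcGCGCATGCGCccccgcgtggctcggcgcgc
Mrpl9: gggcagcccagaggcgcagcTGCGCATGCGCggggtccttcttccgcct
Mrps18b: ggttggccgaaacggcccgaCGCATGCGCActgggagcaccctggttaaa

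The genes that work with the mitoribosome were read from the same fit. Beside the counts of each list, 40.2% of all 12800 genes tested were called higher and 39.2% lower. Of 5 further subunits with other symbols, Chchd1 rose by 0.62 and Aurkaip1 by 0.55, and 3 did not pass. Of 27 genes for ribosome assembly and ribosomal RNA modification, 14 rose and 7 fell, with a median of 0.22 close to that of the members. Gtpbp10, a GTPase of large subunit assembly, rose by 0.99 and the methyltransferase Mettl15 by 0.97, while the assembly GTPase Noa1 fell by 0.88. Of 16 translation factor genes, 8 rose and 5 fell (median 0.26). The initiation factor Mtif3 rose from 14.7 ± 0.827 to 28.2 ± 2.55 CPM, and the release factor Mtrf1 from 0.588 ± 0.0358 to 4.33 ± 0.801. Mtrf1l fell by 0.32, a call lost in 6 of 15 other settings. Of 20 genes for charging mitochondrial transfer RNA, 8 rose and 8 fell, with a median of −0.03. Nars2 rose by 1.68 and Fars2 by 0.97, and Sars2, which shares a start region with Mrps12, fell by 1.27.

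The messages that mitoribosomes translate were higher in myotubes. All 7 of the 13 mitochondrial messages that were tested rose, with a median of 0.88, among them ND6 by 1.15 and COX1 by 1.12 on the log2 scale. The other 6 had at most 3 counts in any library and were not tested. For 5 of these, COX2, COX3, ATP6, ND3 and ND4L, 98.0 to 100% of the 50-base windows recur in other transcripts, and how the counting treated such reads is not stated, so these counts give no level. Of the tested messages, 62.2% of the windows of ND4 and 51.1% of those of COX1 recur elsewhere. Of 73 tested nuclear genes for respiratory chain and ATP synthase subunits, 68 rose and 1, Cox6a1, fell, with a median of 0.76. These were 93.2% and 1.37% of the list, beside 40.2% and 39.2% of all genes tested. Ndufs4 rose from 51.2 ± 2.11 to 154 ± 5.13 CPM. Beyond 1.5-fold, 46 of these 73 were called higher, against 8 of the 77 mitoribosomal genes and 20.9% of all genes tested. By library totals these were 29 of 73, 4 of 77 and 17.5%. Of 85 tested cytosolic ribosomal protein genes, 20 rose (23.5%) and 19 fell (22.4%), with a median of 0.02. This list was drawn by symbol and takes in related genes such as Rpl3l and Rpl10l, and its highest log2 change was 9.34. Summed levels were 1.41-fold higher for the respiratory chain genes, 1.16-fold for the mitoribosomal genes and 1.04-fold for the cytosolic ribosomal genes. No test was made between these lists.

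**Figure D4:**
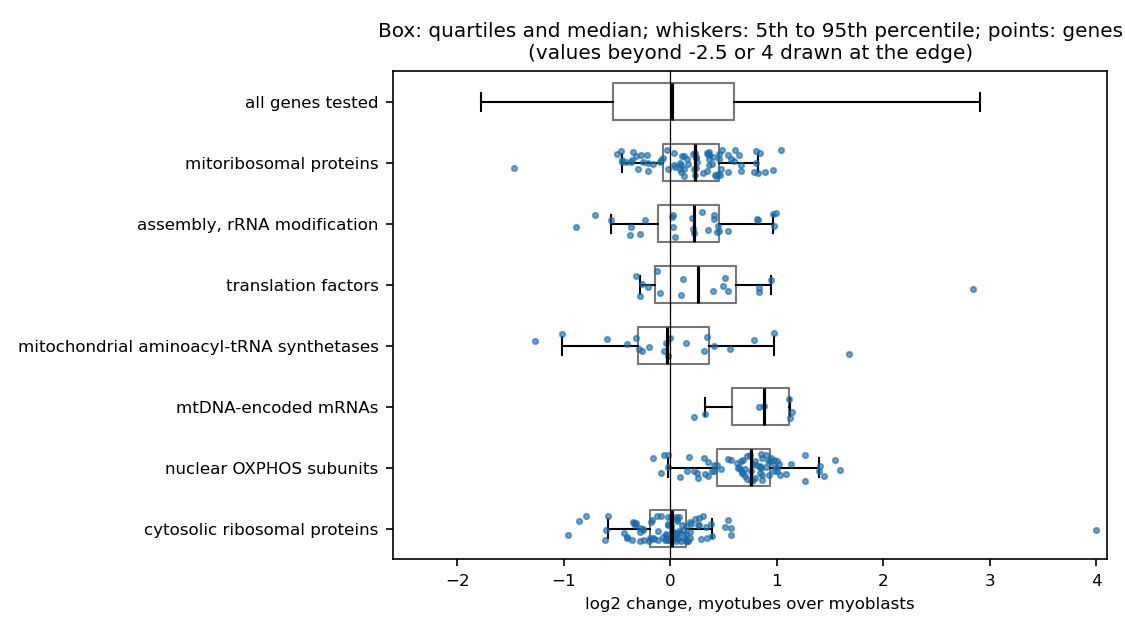
Log2 change, myotubes over myoblasts (x axis), of the genes of each list (points) with the median and quartiles (box) and the 5th to 95th percentiles (whiskers), beside all 12800 genes tested. The mitoribosomal genes have a median of 0.23, between those of the cytosolic ribosomal proteins at 0.02 and of the nuclear respiratory chain subunits at 0.76. Points beyond the plotted range are drawn at its edge.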

How the data were processed

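RNA was taken from 3 C2C12 myoblast and 3 myotube samples, with libraries made by a stranded mRNA kit, per the labels' protocols. The table the authors deposited holds raw counts of reads for each gene, with 1 column per library, and 0 columns of per-sample values were left unused. Reads were processed with fastp, STAR and featureCounts on mm10, per the submitters' processing notes. For versions, strand setting and reads with several matches: not given in the sources used here. Groups come from the sample titles.

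Counts were tested with edgeR 4.0.16 in R 4.3.3: filterByExpr (minimum count 10, minimum total 15), TMM scaling (factors 1.05 to 1.055 in myoblasts and 0.949 to 0.952 in myotubes), robust quasi-likelihood F test, glmTreat for 1.5-fold, and Benjamini-Hochberg adjustment over 12800 genes (threshold 0.05). The coefficient of variation that edgeR estimated between libraries of a group was 3.56%, which may be technical. On simulated data for this comparison with 12639 genes, 189 of 200 changed genes were recovered with 6 false calls. No 2 replicates were identical, and their counts differed by more than sampling noise (chi-square per degree of freedom 1.35 to 3.22).

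The members and lists were chosen with earlier results of these data known. Named were the 12 highest and 12 lowest called members, every member not called or not tested, the 5 highest and 5 lowest per-length levels, the members of the role lists and the S18 family. In each companion list, the rule named the 2 largest changes in the main direction and the largest in the other, at a mean of at least 1 CPM. It was followed only in part for the respiratory chain genes (Ndufs4 and Cox6a1), and not for the cytosolic ribosomal proteins. Other named genes were chosen after their values were seen. Overlaps and copies were read from GENCODE vM21 principal transcripts in 50-base windows, and start regions from RefSeq tables of GRCm38.p6. Alternatives were DESeq2 1.42.0 size factors and Wald test, library totals, voom from limma 3.58.1, no filter, 1 CPM in 3 libraries, other fold thresholds (1.2 and 2), a replicate block, counts thinned to the smallest library, the fit without mitochondrially encoded genes, other member sets and leaving out each library. Leaving out members with shared sequence was added after seeing the data.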

Additional observations from a re-analysis of the deposited data

How the results depend on the processing

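Of 77 tested members, 56 kept their call in all 15 refits, namely 32 higher, 13 lower and 11 not called. Library totals in place of TMM gave 22 members lower, 4 beyond 1.5-fold upward and a median log2 change of 0.0877, and turned Mrpl45 to −0.0119 (adjusted p = 0.855). Fold thresholds of 1.2 and 2 gave 29 and 0 members higher (31.5% and 12.4% of all genes tested), with 5 lower at 1.2-fold and Mrps6 alone at 2-fold (30.6% and 9.2%). Without the filter the median was 0.19. Leaving out each library in turn gave 37 to 41 higher, 13 to 16 lower and medians of 0.198 to 0.242. Same-numbered libraries did not deviate together (correlations −0.00844, 0.00179 and −0.00386), and the replicate block left 41 higher and 14 lower. Counting depth limits Mrpl36, Mrpl23, Mrps33 and Mrps36, the members with the lowest CPM.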

Other observations

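Among 15 genes known to regulate mitochondrial transcription and biogenesis, 5 rose and 6 fell in myotubes, with a median log2 change of −0.06. The coactivator gene Ppargc1a rose from 0.361 ± 0.172 to 4.74 ± 0.724 CPM (SD, n = 3), a log2 change of 3.70. The gene of the activator NRF1 itself, Nrf1, had 50.7, 48.1 and 48.8 CPM in myoblasts and 24.8, 28.3 and 29.4 in myotubes. It fell by 0.83 on the log2 scale, and the related coactivator gene Pprc1 fell by 0.42.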
